A study of Rattus norvegicus with 6 samples.

Results

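Regulators of G protein signalling (RGS proteins) were followed in primary rat oligodendrocyte cultures, as 10 genes matched by symbol among the 20422 entries of the gene expression table. The 10 were Rgs2, Rgs3, Rgs4, Rgs5, Rgs8, Rgs10, Rgs12, Rgs14, Rgs16 and Rgs17. They were chosen by the PBS and cholesterol counts analysed here, because Rgs16 rose strongly and the question was whether its relatives did too. Their own fold changes are therefore given as a description, with no p-value, and where a member is said to pass or miss the threshold of the fit over all genes, that too describes the values that chose it and supports nothing. Cultures were prepared from rat brain at postnatal day 1, and the labels give no strain, sex or genotype. For 12 h, 3 control libraries' cells received phosphate-buffered saline (PBS) and 3 treated libraries' cells received 0.01 mM water-soluble cholesterol. Water-soluble cholesterol is usually a complex with a cyclodextrin, and a group given the carrier alone was not analysed here. The labels do not state whether libraries within a group derive from different cultures or rats. The p-values therefore reflect the spread among these samples alone, and that spread may be technical.

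RGS proteins shorten signals from G protein-coupled receptors. A receptor loads a G protein alpha subunit with GTP, and the RGS domain speeds the hydrolysis of that GTP, which returns the subunit to its resting state. Most proteins of the R4 subfamily (Rgs2, Rgs3, Rgs4, Rgs5, Rgs8 and Rgs16 here) are small and little more than this domain, with Rgs3, which has long forms with further domains, as the exception. R12 proteins such as Rgs12 and Rgs14 carry further signalling domains. In the oligodendrocyte lineage, G protein-coupled receptors such as Gpr17, Lpar1 and S1pr5 are known for roles in the timing of differentiation and in process dynamics.

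Each library held between 63769532 and 70878378 counts. In libraries of that size 3 counts correspond to 0.0425 to 0.0471 CPM (counts scaled to library size, per 1e6), a floor that covers counting error only. Replicates differed by more than sampling noise (chi-square divided by its degrees of freedom, 8.85 to 20.9), and libraries of different groups by far more (83.3 to 114). The summed FPKM (fragments per kilobase, scaled to depth) of 10 oligodendrocyte markers lay between 4940 and 5030 in PBS and between 7390 and 8390 after cholesterol, with Mbp among the most abundant. Microglia, astrocyte and neuron markers were also present, at 178 to 189, 541 to 548 and 236 to 251 summed FPKM in PBS (11, 10 and 10 markers). By the microglia and astrocyte markers, RNA of other cell types was present. The neuron sum came mostly from Tubb3, Stmn2, Map2 and Elavl3 (means of 99.1, 45.1, 43.0 and 36.5 FPKM in PBS). Other neuron markers ran from 0.0495 (Slc17a7) to 7.11 FPKM (Snap25), so that sum is weaker ground for neuron RNA. After cholesterol the microglia, astrocyte and neuron sums were 119 to 152, 766 to 830 and 242 to 264. At an adjusted p of 0.05 in the edgeR fit, 20.5% of all genes tested rose and 19.7% fell. By gene, 6 of 10 oligodendrocyte markers tested rose and 1 fell, and 6 of 9 astrocyte markers rose and 2 fell. Of 10 neuron markers 1 rose and 1 fell. Of 7 precursor markers 1 rose and 5 fell, and of 8 endothelial markers 1 rose and 2 fell. No listed marker was at 0 in all libraries. In bulk samples such as these, fewer cells of a type and less RNA per cell cannot be told apart.

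Rgs16, an R4 protein that acts on alpha subunits of the Gi and Gq classes, nearly tripled after cholesterol. Its expression was 40.4, 37.5 and 38.6 CPM in the PBS libraries and 118, 113 and 104 CPM in the cholesterol libraries. The groups were far apart, and the lowest cholesterol library stood well above the highest PBS library. The group means of 38.8 ± 1.44 and 112 ± 6.89 CPM (SD, n = 3) differed 2.89-fold, with a log2 fold change of 1.52 ± 0.053 (SE). Over 13 alternative settings this value stayed between 1.46 and 1.57. By size of rise it ranked 42 among the 12432 tested genes with a mean of at least 1 FPKM. Markers of oligodendrocytes and astrocytes were higher in the same libraries (the sums above), and their part in the rise was not tested.

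Rgs16 lies next to another R4 gene, Rgs8, on chromosome 13. In the deposited table both are on the plus strand, 40.7 kb apart with no other gene between them. The submitters' processing notes name rn6, but whether the table's coordinates follow that build could not be settled, so distances alone are given. Rgs8, known mainly from neurons, did not share the rise. It stood at 17.4, 16 and 16 CPM in PBS and 16.9, 15.9 and 16.3 CPM after cholesterol, with a log2 fold change of -0.01 ± 0.0724 (SE). The ranges of the groups overlapped. Within each library, the FPKM of Rgs16 divided by that of Rgs8 was 3.58, 3.62 and 3.73 in PBS and 10.7, 11 and 9.85 after cholesterol, a ratio that does not depend on library scaling.

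The promoters of these neighbours are shown because they sit side by side and their transcripts differed in response. That of Rgs2, the next most abundant member, is shown for comparison. Each window runs from 250 bases before to 50 bases after a RefSeq start site in build GRCr8, and all 10 members had one. The windows are chr13:68437870-68438169 on the plus strand for Rgs16, chr13:68366648-68366947 on the plus strand for Rgs8 and chr13:58352617-58352916 on the minus strand for Rgs2. Capitals mark CCAAT boxes (CCAAT), GC boxes (GGGCGG) and TATA boxes (TATAAA) on either strand, and none of the marked stretches overlap.
Rgs16: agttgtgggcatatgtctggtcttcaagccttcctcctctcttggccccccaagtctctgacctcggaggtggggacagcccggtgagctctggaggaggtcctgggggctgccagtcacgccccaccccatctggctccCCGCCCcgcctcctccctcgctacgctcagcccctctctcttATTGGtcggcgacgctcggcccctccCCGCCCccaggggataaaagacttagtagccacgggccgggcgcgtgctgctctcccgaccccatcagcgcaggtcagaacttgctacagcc
Rgs8: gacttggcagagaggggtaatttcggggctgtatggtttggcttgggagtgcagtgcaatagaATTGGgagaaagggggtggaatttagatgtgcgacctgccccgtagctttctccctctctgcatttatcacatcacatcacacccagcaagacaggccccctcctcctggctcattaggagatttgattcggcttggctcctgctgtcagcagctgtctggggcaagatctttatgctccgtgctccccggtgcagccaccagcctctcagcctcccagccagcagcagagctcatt
Rgs2: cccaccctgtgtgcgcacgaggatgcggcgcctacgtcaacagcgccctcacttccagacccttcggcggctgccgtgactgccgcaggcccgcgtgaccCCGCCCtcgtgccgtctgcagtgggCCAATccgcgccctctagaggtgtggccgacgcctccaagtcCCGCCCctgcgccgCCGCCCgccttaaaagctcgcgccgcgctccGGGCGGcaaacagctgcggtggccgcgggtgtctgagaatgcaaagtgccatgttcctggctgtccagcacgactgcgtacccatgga

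The Rgs16 window holds a CCAAT box 68 bases before the start and GC boxes 110 and 42 bases before it, and 66.3% of its bases are G or C. The Rgs8 window holds a CCAAT box 187 bases before the start and no GC box, with 55.7% G or C. That of Rgs2 holds a CCAAT box and 4 GC boxes, with 69.7% G or C. Of the 33469 rat promoter windows of this length, 37.5% hold a CCAAT box, 33.1% a GC box and 14.2% a TATA box. A GC box occurred in 7 of the 10 members and a CCAAT box in 4. No member's window held the letters TCACNCCAC (a sterol response element, in about 1.1% of all windows), CACGTG (an E-box, 6.42%) or TGACGTCA (a cyclic AMP response element, 1.83%). The shorter core TGACG, found in 21.2% of all windows, was in those of Rgs2, Rgs3 and Rgs4. These matches describe letters in the windows alone, and the RefSeq record of Rgs16 begins 16.6 kb before the start site shown.

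Besides Rgs16 and Rgs8, the clearly expressed R4 members were Rgs2 and Rgs3, and both were modestly higher after cholesterol. Rgs2, which acts mainly on Gq, stood at 33.3, 29.9 and 33.8 CPM in PBS and 36.9, 42.2 and 41.3 CPM after cholesterol, with a log2 fold change of 0.31 ± 0.0712 (SE). Rgs3, which acts on Gi and Gq, stood at 21.1, 20 and 20.9 CPM in PBS and 29.4, 24.8 and 27.0 CPM after cholesterol (log2 fold change 0.39 ± 0.0727, SE). In both genes all cholesterol libraries lay above all PBS libraries. Their rises were far smaller than that of Rgs16, whose FPKM divided by that of Rgs2 went from 0.817 ± 0.0387 to 1.9 ± 0.24 (SD, n = 3). Divided by that of Rgs3, it was 4.54 ± 0.0927 in PBS and 2.2 times that after cholesterol.

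Rgs4 had low counts, and Rgs5 was close to the detection floor. Like Rgs16, their proteins are known substrates of the N-degron route of protein destruction, which these RNA values do not show. Rgs4, a regulator enriched in neurons, had 19, 54 and 46 counts in PBS and 93, 56 and 56 after cholesterol. All cholesterol libraries were above all PBS libraries in CPM, but the nearest values almost touched, at 0.785 in PBS and 0.825 after cholesterol. The log2 fold change was 0.87 ± 0.422 (SE) and did not pass the threshold of the fit over all genes. It was 0.53 without PBS replicate 1 and 0.56 without cholesterol replicate 1. Rgs5, best known from pericytes, had 0, 0 and 8 counts in PBS and 5, 8 and 8 after cholesterol, too few to be tested. Summed pericyte and smooth muscle markers were also low, at 17.9 to 20 FPKM in PBS and 18.4 to 21.9 after cholesterol, and of 8 tested 3 rose and 1 fell. Kcnj8 and Abcc9, which mark pericytes, were too low to be tested.

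**Figure D1:**
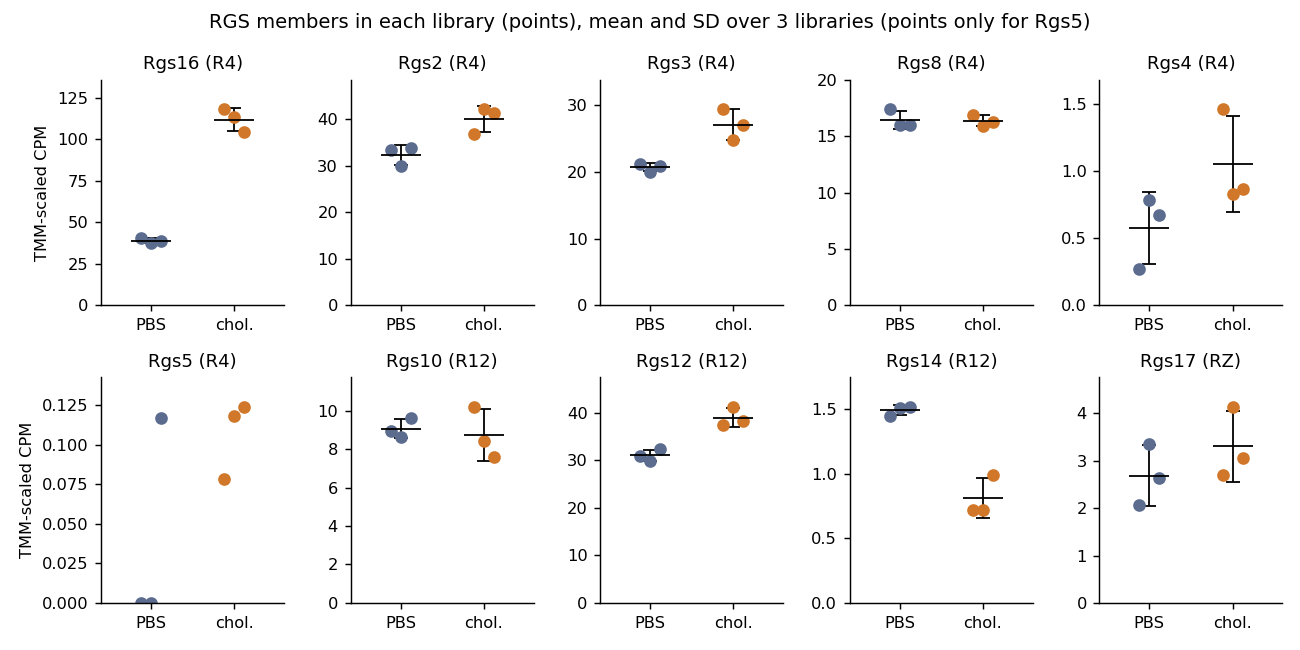
TMM-scaled CPM of each member in the 3 PBS and 3 cholesterol libraries, on an axis from 0 for each gene, with points for libraries and bars for the mean and SD over 3 libraries (points alone for Rgs5). Rgs16 shows the widest gap between groups, Rgs2, Rgs3 and Rgs12 smaller upward gaps and Rgs14 a downward gap, while Rgs8, Rgs10 and Rgs17 overlap.

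The R12 members went different ways. Rgs12, a large protein with PDZ, phosphotyrosine-binding and GoLoco regions, stood at 30.8, 29.9 and 32.3 CPM in PBS and 37.4, 41.2 and 38.2 CPM after cholesterol (log2 fold change 0.33 ± 0.0601, SE), without overlap. Rgs14, a scaffold that also binds Ras proteins, was lower, with 102, 104 and 104 counts in PBS and 46, 49 and 64 after cholesterol. It averaged 1.49 ± 0.0402 CPM in PBS against 0.812 ± 0.157 CPM after cholesterol (SD, n = 3), and its log2 fold change was -0.88 ± 0.247 (SE). It was the single member past the threshold in the downward direction, and it no longer passed without PBS replicate 3 (log2 fold change -0.87) or without cholesterol replicate 1 (-0.80). Rgs10, a short R12 protein abundant in microglia, stood at 8.93, 8.64 and 9.64 CPM in PBS and 10.2, 8.43 and 7.59 CPM after cholesterol. Its groups overlapped, with a log2 fold change of -0.05 ± 0.120 (SE) that turned to 0.04 without cholesterol replicate 3.

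Rgs17, the RZ member, a subfamily that acts on Gz and related subunits, stood at 2.07, 3.36 and 2.64 CPM in PBS and 2.71, 4.14 and 3.06 CPM after cholesterol. The groups overlapped, and the log2 fold change was 0.30 ± 0.220 (SE), between 0.10 and 0.49 over the alternatives. No member overlaps another annotated gene in the deposited table, and each symbol had 1 entry.

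Of the 9 members tested in the fit over all 16182 genes, 4 passed an adjusted p of 0.05 upward (Rgs2, Rgs3, Rgs12 and Rgs16) and 1 downward (Rgs14), and 4 did not pass. Over all genes 20.5% passed upward and 19.7% downward, 40.3% in all. Scaling each library to its median changed the counts over all genes from 3325 higher and 3189 lower to 2517 and 4158, and left those of the members at 4 and 1. The cholesterol values lay wholly above the PBS values for 5 of the 9 members (26.6% of all genes) and wholly below for 1 (25.7%), against 52.3% of all genes in either direction. Since this contrast chose the members, nothing is read from these shares. Rgs16 was the single member that passed with a rise of at least 2-fold, which 2.16% of all genes did. The median log2 fold change of the members tested was 0.31, beside 0.0053 for all genes.

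**Figure D2:**
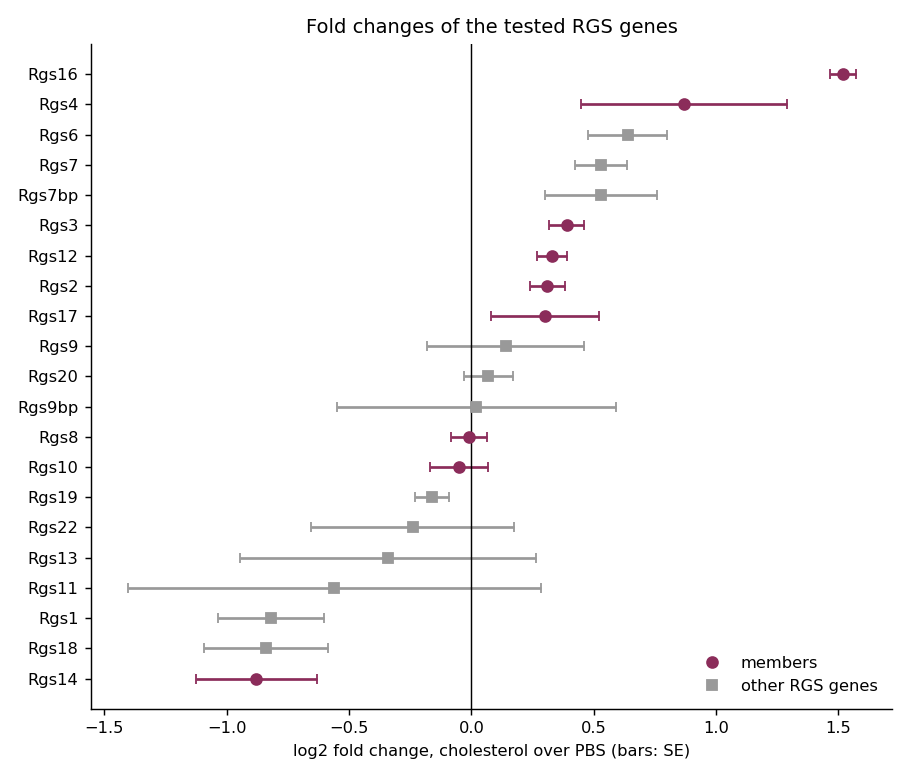
Log2 fold change of cholesterol over PBS, with its SE, for the 9 tested members (circles) and 12 other RGS genes (squares), in order of size. The squares include Rgs7bp and Rgs9bp, which encode RGS-binding proteins. Rgs16 at 1.52 stands apart at the top with a narrow SE, Rgs4 at 0.87 comes next with a wide one, and Rgs1, Rgs18 and Rgs14 are at the bottom.

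Per length of transcript, Rgs16 passed Rgs2 to become the most abundant member. In PBS the order by mean FPKM was Rgs2 (17.7 ± 1.13), Rgs16 (14.4 ± 0.517), Rgs10 (7.07 ± 0.407), Rgs12 (4.40 ± 0.168), Rgs8 (3.95 ± 0.197) and Rgs3 (3.17 ± 0.0811), with SD over 3 libraries. Rgs17, Rgs14, Rgs4 and Rgs5 were below 1 FPKM. Rgs16 and Rgs2 did not overlap in either group, but their order turned, with Rgs16 at 13.9 to 15.0 and Rgs2 at 16.4 to 18.4 FPKM in PBS, and 39.2 to 43.7 against 20.2 to 23.3 FPKM after cholesterol. After cholesterol Rgs3 (3.84 to 4.51 FPKM) and Rgs8 (3.85 to 4.07 FPKM) could not be ordered beyond their spread.

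The summed FPKM of the 10 members was 53.0, 49.9 and 53.4 in PBS and 87.3, 87.5 and 83.3 after cholesterol. Of the gain of 33.9 FPKM between the group means, 27.3 FPKM, or 80.6%, came from Rgs16. Without Rgs16 the sum was 37.7 ± 1.59 FPKM in PBS and 44.3 ± 0.887 FPKM after cholesterol (SD, n = 3 per group). The share of Rgs16 in the family's sum went from 27.6% to 48.5%, and that of Rgs2 from 33.9% to 25.7%.

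**Figure D3:**
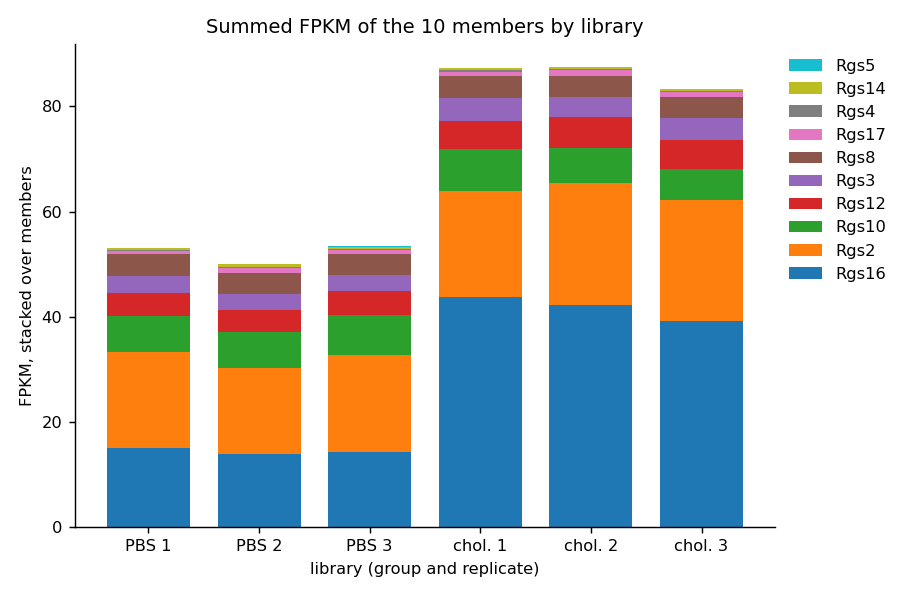
Stacked FPKM of the 10 members in each library, with 1 colour per gene and an axis from 0. The column height goes from between 49.9 and 53.4 FPKM in PBS to between 83.3 and 87.5 FPKM after cholesterol, mostly through the Rgs16 segment at the base.

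RGS genes outside the chosen 10 are given with the test over all genes, although they too were listed with earlier results of these data known. Of 13 further genes listed, 12 were in the table and tested. Of these 2 rose, 2 fell and 8 did not pass, which is 33.3% called against 40.3% of all genes. The 12 include Rgs7bp and Rgs9bp, which encode RGS-binding proteins and did not pass, and which lower that share. The median log2 fold change was -0.07. Both genes that rose encode R7 proteins, which work as partners of the beta subunit Gnb5. Rgs6 had 205, 205 and 182 counts in PBS and 319, 321 and 231 after cholesterol (log2 fold change 0.64 ± 0.161, SE, adjusted p = 0.00938). Rgs7 had 422, 366 and 426 counts in PBS and 527, 547 and 579 after cholesterol (0.53 ± 0.108, adjusted p = 0.00293). In neither gene did the groups overlap. Gnb5 also rose, from 22.7 ± 1.19 to 30.6 ± 1.8 CPM (SD, n = 3 per group; log2 fold change 0.43, adjusted p = 6.32e-04). Rgs7bp, which anchors R7 proteins at membranes, did not pass (0.53, adjusted p = 0.0891), but did without PBS replicate 2 (0.77, adjusted p = 0.0313). It passed in no other alternative, and was at 0.33 without PBS replicate 1 (adjusted p = 0.25). The other R7 genes, Rgs9 and Rgs11, were below 1 CPM, with log2 fold changes of 0.14 ± 0.322 and -0.56 ± 0.845 (SE), and the entry for Rgs11 is labelled a pseudogene.

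Both genes that fell are R4 regulators best known from blood cells. Rgs1 had 452, 616 and 425 counts in PBS and 256, 359 and 186 after cholesterol (log2 fold change -0.82 ± 0.217, SE, adjusted p = 0.0120). Rgs18 had 576, 549 and 540 counts in PBS and 236, 465 and 186 after cholesterol (-0.84 ± 0.253, adjusted p = 0.0233). Cholesterol replicate 2 was the highest cholesterol library for both, and also had the highest summed microglia markers of its group (152 FPKM, against 124 and 119 in replicates 1 and 3). Of the 11 microglia markers 8 fell and 0 rose, with a median log2 fold change of -0.72. Their part in the fall of Rgs1 and Rgs18 was not tested. The call for Rgs1 ended without PBS replicate 2 (-0.63, adjusted p = 0.0593). That for Rgs18 ended without any 1 of 5 libraries (adjusted p between 0.0576 and 0.0915), whereas without cholesterol replicate 2 the log2 fold change was -1.28 (adjusted p = 9.69e-05).

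Among the remaining genes, Rgs19, an RZ protein, stood at 18.4 ± 0.882 CPM in PBS and 16.4 ± 0.273 CPM after cholesterol (SD, n = 3 per group). Its log2 fold change was -0.16 (adjusted p = 0.0868), and it passed when libraries were scaled to their median (-0.22, adjusted p = 0.0244). Rgs20, another RZ gene, which overlaps Atp6v1h, was at 8.16 ± 0.707 and 8.56 ± 0.268 CPM (0.07, adjusted p = 0.622). Rgs13, Rgs22 and Rgs9bp were each below 1 CPM in both groups, with standard errors of 0.414 to 0.604 on the log2 scale.

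Chromosome 13 carries 5 of the 10 members (Rgs2, Rgs4, Rgs5, Rgs8 and Rgs16) and, among the other RGS genes, Rgs1, Rgs7, Rgs13 and Rgs18. Rgs2, Rgs13, Rgs1 and Rgs18 follow one another on the minus strand, with gaps of 120, 62.9 and 471 kb, the last of which holds 1 other gene. Rgs2 rose there while Rgs1 and Rgs18 fell. Rgs5 and Rgs4 are 51.3 kb apart with no gene between them. Within 500 kb of Rgs16, a window set after the data were at hand, genes on both sides were looked at beside Rgs8. Glul, glutamine synthetase, 133 kb away, rose from 637 ± 15.7 to 1390 ± 147 CPM (1.12, adjusted p = 1.60e-06). Dhx9, an RNA helicase at -248 kb, fell from 407 ± 3.12 to 279 ± 7.07 CPM (-0.55, adjusted p = 2.03e-06).

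**Figure D4:**
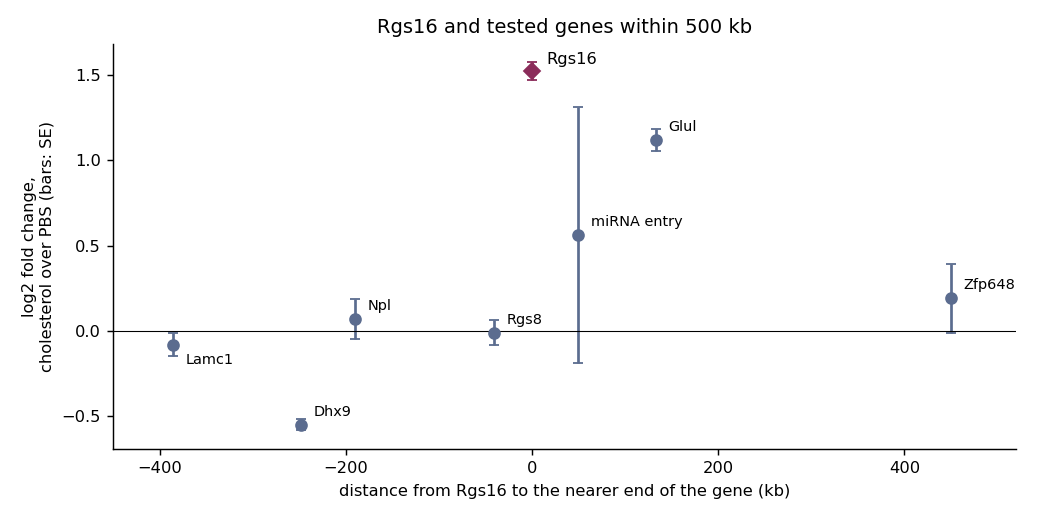
Log2 fold change of cholesterol over PBS, with its SE, for Rgs16 (diamond) and tested genes within 500 kb, against the distance in kb from Rgs16 to the nearer end of each gene. Rgs16 at 1.52 and Glul at 1.12 are high, Dhx9 at -0.55 is low, and Rgs8, the nearest gene on the left, is at -0.01.

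The genes whose profile lay closest to that of Rgs16 were found among 11374 named genes averaging 1 FPKM or more. The measure was the root mean square difference of log2 CPM over the 6 libraries, each gene centred on its own mean. Rcan2, a modulator of calcineurin, was nearest (0.0443, from 12.2 ± 0.160 to 33.7 ± 1.54 CPM), then Tyro3, a receptor tyrosine kinase (0.0482, from 47.0 ± 1.08 to 130 ± 10.9 CPM). Steap3, a metalloreductase, followed at 0.0716, then S100a16, a calcium-binding protein, at 0.0821 and Tnfaip6, which binds hyaluronan, at 0.0839. Of the other members, Rgs2, Rgs3, Rgs8, Rgs10 and Rgs12 reached that mean, and none of them was near. Rgs4, Rgs5, Rgs14 and Rgs17 fell below it and were not compared. Rgs3 was the closest at rank 1250 (0.573), then Rgs12 at 1587 (0.601) and Rgs2 at 1763 (0.614). With 2 groups of 3 libraries, this likeness mostly reflects the size of the rise.

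Other proteins that carry an RGS domain, such as G protein-coupled receptor kinases and guanine nucleotide exchange factors, changed by small amounts. Of 14 tested, 7 fell and 1 rose (57.1% called, beside 40.3% of all genes), with a median log2 fold change of -0.18. Grk3, a receptor kinase, fell by 0.47 on the log2 scale (adjusted p = 0.0105), Arhgef11 by 0.24 (adjusted p = 0.00414), Snx25, a sorting nexin, by 0.22 (adjusted p = 0.00154) and Arhgef12 by 0.17 (adjusted p = 0.0158). The gene that rose was Grk6 (0.16, adjusted p = 0.0248), a call lost with scaling to the library median and without any 1 of 4 libraries. Snx25 and Arhgef11 each overlap 1 other gene. The number that fell was 3 on leaving out PBS replicate 2, 4 on leaving out PBS replicate 1 or cholesterol replicate 1, 4 by limma on FPKM, and 10 when libraries were scaled to their median. Arhgef12 lost its call without PBS replicate 2 or 3 (adjusted p = 0.0745 and 0.0512) and by limma on FPKM (adjusted p = 0.0506).

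The alpha subunits on which RGS proteins act changed in both directions. Of 13 tested, 3 rose and 4 fell (2 without cholesterol replicate 3), which is 53.8% called beside 40.3% of all genes. The median was 0.03 and turned to -0.03 with scaling to the library median. Gnal, the olfactory type of stimulatory subunit, rose from 17.4 ± 0.609 to 28.7 ± 1.99 CPM (0.73 on the log2 scale, adjusted p = 2.94e-05) and overlaps another gene. Gnai1, an inhibitory subunit of the class Rgs16 acts on, rose from 73.2 ± 2.12 to 92.0 ± 1.96 CPM (0.33, adjusted p = 1.06e-04). Gnaq, the namesake of the Gq class, fell from 79.2 ± 0.470 to 63.9 ± 1.9 CPM (-0.31, adjusted p = 1.71e-04). Gnas, the main stimulatory subunit, fell from 1103 ± 3.10 to 970 ± 3.81 CPM (-0.18, adjusted p = 4.14e-04), and its symbol has 2 overlapping entries, between which reads may be split. Errors are SD over 3 libraries per group.

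Of 14 beta and gamma subunits, 5 rose and 1 fell (42.9% called, beside 40.3% of all genes), with a median of 0.12. Besides Gnb5, Gnb2 (0.14, adjusted p = 0.00720) and Gng10 (0.18, adjusted p = 0.00850) rose, and Gnb4 fell (-0.27, adjusted p = 2.33e-04). The Gng10 value is uncertain, since it belongs to an entry annotated as a long noncoding RNA that overlaps another entry of that symbol. The calls for Gnb2 and Gng10 ended with scaling to the library median (adjusted p = 0.0781 and 0.0571), which left 2 higher genes in the list. Of 11 other regulators of G proteins 1 rose and 3 fell (36.4% called), with a median of -0.06. Gpsm3, a GoLoco protein of leukocytes, fell most (-0.95, adjusted p = 9.05e-04), followed by the arrestin Arrb2 (-0.35, adjusted p = 0.00181) and Ccdc88a (-0.17, adjusted p = 0.00592). Gpsm2, which orients mitotic spindles, rose (0.25, adjusted p = 0.00581).

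Receptors that signal through G proteins moved in both directions. Of 51 listed glial receptors tested, 14 rose and 12 fell, which is 51.0% called beside 40.3% of all genes. The median was -0.02, with a range from -1.70 to 1.74. Lpar1, a lysophosphatidic acid receptor of oligodendrocytes, rose from 66.0 ± 0.733 to 133 ± 10.3 CPM (1.01 on the log2 scale, adjusted p = 1.09e-06). The myelin-associated receptor Gpr37 rose from 13.9 ± 0.465 to 33.6 ± 3.38 CPM (1.28, adjusted p = 2.76e-06), and the sphingosine phosphate receptor S1pr5 from 16.4 ± 0.557 to 39.9 ± 4.71 CPM (1.28, adjusted p = 3.70e-06). Gpr17, which marks committed precursors, fell from 1696 ± 45.8 to 1319 ± 105 CPM (-0.36, adjusted p = 3.07e-04) and overlaps Lims2. Cx3cr1, the fractalkine receptor of microglia, fell from 42.1 ± 1.97 to 12.9 ± 1.77 CPM (-1.70, adjusted p = 1.20e-06). Errors are SD over 3 libraries per group.

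Of 20 effectors downstream of G proteins, 6 fell and 2 rose (40.0% called, near the 40.3% of all genes), with a median of 0.08. The 4 with the smallest p all fell. They were Pik3cg (-1.19, adjusted p = 3.03e-05) and Pik3r5 (-0.79, adjusted p = 2.48e-04), subunits of the phosphoinositide kinase driven by beta and gamma subunits, the adenylyl cyclase Adcy7 (-0.91, adjusted p = 2.17e-04) and the potassium channel gene Kcnj5 (-1.69, adjusted p = 2.46e-04). Pik3cg had 2705, 4145 and 2765 counts in the cholesterol libraries against 7561 to 7804 in PBS, highest again in cholesterol replicate 2, the library with the most microglia markers of its group. In CPM of the cholesterol libraries, Adcy7 (8.12, 11.1 and 8.05) and Kcnj5 (0.706, 0.899 and 0.822) were also highest in replicate 2. Pik3r5 was not, at 6.71, 6.39 and 5.38 CPM, with its highest value in replicate 1. The part of the microglia markers in these falls was not tested. Over all 135 genes of the lists outside the members, 28 rose and 35 fell, 46.7% called beside 40.3% of all genes.

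**Figure D5:**
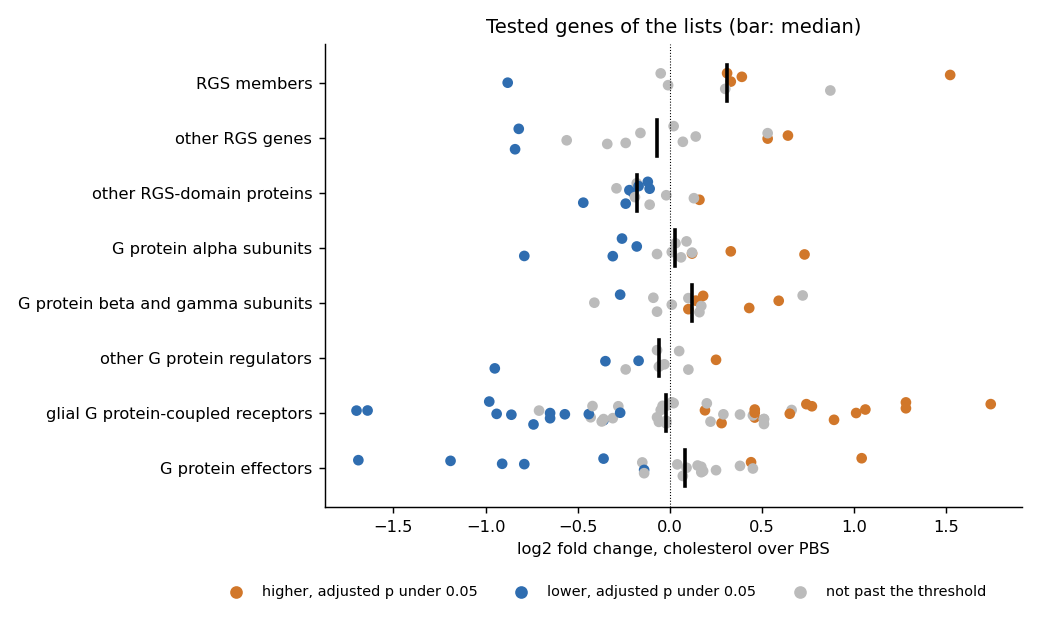
Log2 fold change of cholesterol over PBS for each tested gene of the RGS members and of 7 lists of G protein signalling genes, with orange for higher and blue for lower at an adjusted p under 0.05, grey for the rest and a bar for each list's median. Receptors spread from -1.70 to 1.74, while the list medians lie between -0.18 and 0.31.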

How the data were processed

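Poly(A) RNA of 6 libraries was sequenced in pairs after a second-strand dUTP preparation, per the labels' protocols. HISAT2 2.2.1, cutadapt 1.9, edgeR, StringTie 2.1.6 and DESeq2 are named, with build rn6 but no roles, per the submitters' processing notes. How the counts were made, the annotation release and any use of strand are not given in the sources used here. If the deposited counts were derived from transcript coverage, the count model, and with it each SE, adjusted p and the floor of 3 counts, only approximates the error. Whole-number counts and FPKM per Ensembl gene stand side by side in the deposited table, per the file headers.

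R 4.3.3 and edgeR 4.0.16 were used for the counts. The filterByExpr rule kept 16182 of 20422 genes and left out 4240. Libraries were scaled by TMM, and the quasi-likelihood test was applied two-sided, without a replicate term and with Benjamini-Hochberg adjustment over all genes tested. The threshold was an adjusted p of 0.05. The SE is the log2 fold change divided by the square root of F. CPM are TMM-scaled, and levels between genes are compared in the deposited FPKM. Low-count members are the least precise. The script was tested on simulated data.

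The members and the lists of related genes and markers were chosen with earlier results of these data known. Genes were named as follows. All members and other RGS genes were taken. Of each pathway list, up to 4 genes past the threshold with the smallest p were taken, and of each marker list the 2 most abundant, of which not all are described. The 5 genes most like Rgs16 were also taken. Grk6, Gpr17 and the neighbours of Rgs16 were named after their values were seen. Some neighbouring and marker genes are not reported here. Promoter motifs were chosen after the sequences were at hand. Alternatives were no filter, a minimum mean of 1 FPKM, size factors from DESeq2 1.42.0, scaling to the library median, the DESeq2 Wald test, limma 3.58.1 on log2(FPKM + 0.1), a replicate block and leaving out each library.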

Additional observations from a re-analysis of the deposited data

How the results depend on the processing

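Over the 13 alternatives, refits of the same libraries that chose the members and so no independent support, the log2 fold changes of Rgs16, Rgs2, Rgs3 and Rgs12 were 1.46 to 1.57, 0.25 to 0.37, 0.32 to 0.45 and 0.27 to 0.36. The number of members called lower went from 1 to 0 with a minimum mean of 1 FPKM, which removes Rgs14, and lay between 0 and 1 when 1 library was left out. Other RGS genes called higher went from 2 to 1 with that minimum, which removes Rgs6, and those called lower lay between 0 and 2 when 1 library was left out. With the replicate block 4 members were higher and 1 lower, as without it, and 3165 and 3056 genes passed overall. Same-numbered libraries did not deviate together (correlations of 0.00123, -0.0375 and -0.0261), and no library correlated best with its own number. The numbers were therefore not taken as pairs.

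Signs turned for genes that did not pass. Rgs8 was at 0.00 with limma on FPKM, and at 0.04 and 0.01 without PBS replicate 1 and cholesterol replicate 2. Rgs10 was at 0.04 without cholesterol replicate 3, Rgs11 at 0.02 and Rgs22 at 0.08 without cholesterol replicate 1, and Rgs13 at 0.52 without PBS replicate 2. Rgs9bp was at -0.04 with median scaling and at -0.05, -0.28 and -0.16 without PBS replicate 1, PBS replicate 3 and cholesterol replicate 3. Over the fits that left out 1 library, values ran from -0.03 to 0.04 for Rgs8, -0.18 to 0.04 for Rgs10, -1.01 to 0.02 for Rgs11, -0.73 to 0.52 for Rgs13, -0.47 to 0.08 for Rgs22 and -0.28 to 0.51 for Rgs9bp. The cause was not tested. Low counts limit what can be said of Rgs4, Rgs5, Rgs9, Rgs11, Rgs13, Rgs22 and Rgs9bp.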
